A study of Caenorhabditis elegans with 5 samples.

Results

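The GRH-only windows are stretches of the Caenorhabditis elegans genome where trimethylation of histone H3 on lysine 9 (H3K9me3) depends on germline nuclear RNAi, the GRH class (germline nuclear RNAi-dependent heterochromatin), and which are not on the list of loci whose transcription that pathway silences, the GRTS class (germline nuclear RNAi-dependent transcriptional silencing). Of the 100270 windows of 1 kb in the deposited table, 99764 were kept after 506 windows marked as misannotated were set aside. Of 215 GRH windows, 25 were also GRTS and 190 were not, and 23 of these 190 lay within 2 windows of a GRTS window and were left out. The remaining 167 are called core windows here. Another 307 windows within 2 windows of a GRH-only window are called flank windows, 159 of them 1 window away and 148 of them 2 windows away. Of the 307, 14 have no core window within 2 windows, since the GRH-only windows near them were left out. The 474 windows of both kinds are described in all 5 libraries. The core windows fell into 76 loci, a locus being core windows that lie no more than 2 windows apart, of which 37 were single windows and 14 held 4 to 7 core windows (69 core windows in all).

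Germline nuclear RNAi in C. elegans is guided by small RNAs bound to the nuclear Argonaute HRDE-1, which recruits silencing to nascent transcripts and is needed for the inheritance of silencing over generations. Its targets carry H3K9me3, a mark of heterochromatin laid down by histone methyltransferases. MET-2 and SET-25 are the methyltransferases behind most H3K9 methylation in C. elegans, and SET-32 is a further one that acts at nuclear RNAi targets. GRH-only windows are the targets where the mark depends on this pathway while the study that defined the lists did not place them among the transcriptionally silenced loci.

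The experiment was pre-mRNA-seq, in which RNA polymerase II phosphorylated on serine 2 of its C-terminal repeat is immunoprecipitated and the RNA bound to it is sequenced, so that each value is a level of nascent RNA. There were 5 genotypes with 1 library each: the wild type strain N2 (WT), set-32(ok1457), hrde-1(tm1200), the double mutant of met-2(n4256) and set-25(ok5021), written met-2 set-25, and a triple mutant, which combines that pair of alleles with ok1457. All were synchronized young adult hermaphrodites grown at 19 °C on OP50 bacteria, harvested as whole animals with somatic and germline cells together, so that fewer germline cells and less RNA per cell cannot be told apart. The mutations are present in every cell of the animal. The table names no genes, so neither the mutated genes nor tissue markers were checked in the libraries.

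Values are RPKM, the reads in a 1 kb window scaled to the total reads of the library. The whole-read steps of the low values put 1 read at 0.912 RPKM in WT, 1.47 in hrde-1, 1.49 in met-2 set-25, 1.80 in set-32 and 3.09 in the triple mutant, so the libraries held from 323825 (triple mutant) to 1096418 (WT) reads over the table. Column codes place hrde-1, WT and the double mutant in one library set, and set-32 and the triple mutant in another. The second set had 28.2% and 37.8% of its total in 13 windows of the ribosomal RNA genes, against 4.68% to 9.0% in the first. The windows on neither list were lower for that pair by 0.54 and 0.85 on the log2 scale relative to WT, so a comparison of set-32 or the triple mutant with WT cannot be told apart from the library set. Values rescaled so that this shift is 0 are therefore given beside the deposited ones, and the triple mutant is mainly compared with set-32, which differs from it in met-2 and set-25. No genotype had a second library, so there is no replicate error and no test. Intervals in brackets are exact 95% Clopper-Pearson intervals on the recovered reads, which cover counting error only.

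The GRH-only core windows were transcribed in every genotype, at levels above most of the genome and, at the median, above their own flanks. The median level of the 167 core windows was 17.3 RPKM in WT, 22.1 in hrde-1, 13.4 in met-2 set-25, 16.2 in set-32 and 8.23 in the triple mutant. Over all kept windows the medians in that order were 1.82, 1.47, 2.98, 1.80 and 0.34 RPKM. The WT median of the core windows was at or above the WT value of 84.9% of kept windows, and 159 of the 167 core windows lay above the kept median in WT. Listing at 0 was rare in the deeper libraries, with 2 core windows at 0 in WT and 3 in hrde-1, while 27 were at 0 in the triple mutant. In that shallow library 81 of the core windows held fewer than 3 reads, so its single windows are weakly measured.

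**Figure D1:**
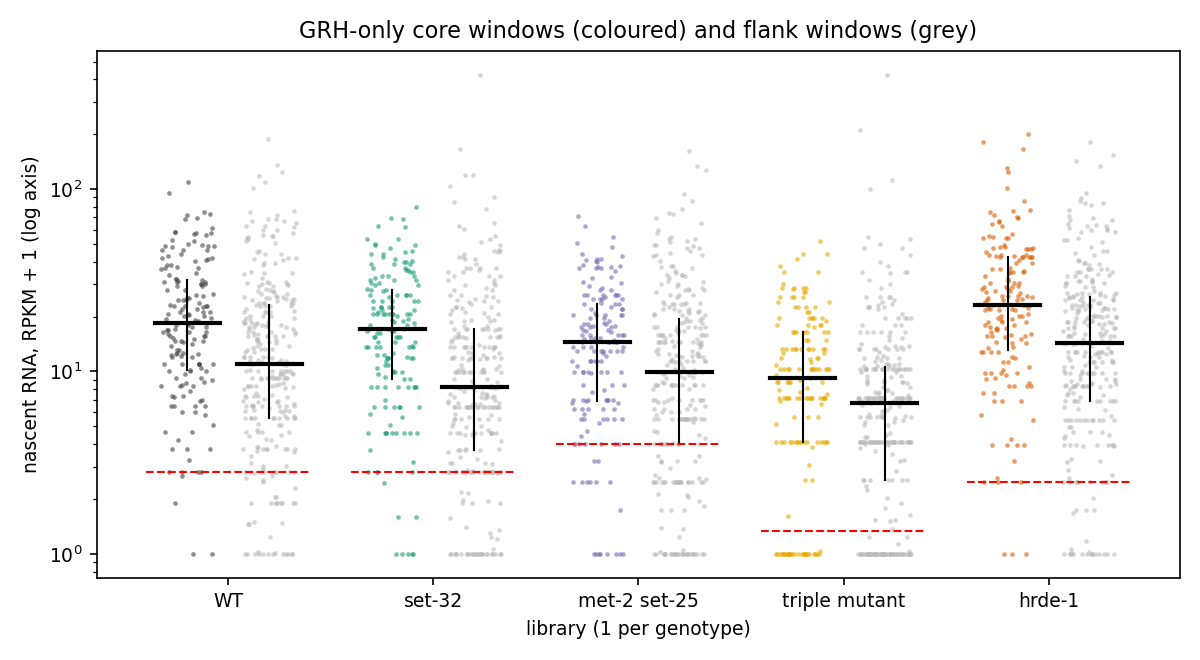
Nascent RNA in RPKM + 1 on a log axis for each of the 167 core windows (coloured) and 307 flank windows (grey) in the 5 libraries; thick bars are medians, thin bars the quartiles and dashed red lines the median of all kept windows. The core median is the highest in hrde-1 (22.1 RPKM) and the lowest in the triple mutant (8.23 RPKM), and all core medians lie above the dashed lines.

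The core windows reached 108 RPKM in WT, 199 in hrde-1, 70.2 in met-2 set-25, 79.1 in set-32 and 51.0 in the triple mutant. The flank windows were lower at the median, at 10.0 RPKM in WT, 13.3 in hrde-1, 8.95 in met-2 set-25, 7.19 in set-32 and 5.68 in the triple mutant. The hrde-1 library held the single highest value in 84 of the 167 core windows (50.3%), against 17.6% of the other kept windows that were above 0 in some library, and in 67 after rescaling. The triple mutant held the single lowest value in 88 core windows as deposited and in 50 after rescaling, where met-2 set-25 was the lowest in 54. For the triple mutant these shares (52.7% and 29.9%) were near the 50.8% and 30.8% of windows on neither list with a mean of 5 RPKM or more. For met-2 set-25 the rescaled share was 32.3% of core windows against 16.1% of those windows.

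The comparison of hrde-1 with WT asks what loss of the Argonaute does to transcription at loci whose heterochromatin depends on it. As a group the core windows were modestly higher in hrde-1, and the gain was uneven between loci. The median ratio of hrde-1 to WT, after adding 1 RPKM to both values, was 1.19, with 99 core windows above WT and 68 below. Their summed level was 1.31 [1.25 to 1.37] times that of WT. The median ratio over all kept windows was 1.00, and over the 34102 windows on neither list whose mean reached 5 RPKM it was 0.919, with 42.3% of those windows above WT. Rescaling moved the core median to 1.29.

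A window is called higher or lower where the ratio is at least 2 in that direction and the larger value at least 20 RPKM. In hrde-1 against WT, 34 core windows were called higher and 11 lower, of 109 that reached 20 RPKM in either library. The background over all kept windows was 0.749% called higher and 1.10% called lower, or 4.80% and 7.08% of the kept windows that reached 20 RPKM. The 31.2% of core windows called higher among those that could be was thus above the background, and the 10.1% called lower was near it. The GRTS list stood further from WT, with 128 of its 191 windows called higher and a median ratio of 4.76. That list was drawn up from transcription in hrde-1 in earlier work, so its absence from the core windows removes windows of that kind by construction. Even the 23 GRH-only windows left out for lying beside a GRTS window had a median ratio of 1.99, with 20 above WT and 3 below.

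At the level of loci, 38 of 76 were above WT in hrde-1 and 37 below, with 1 locus at 0 in WT. The counting interval lay wholly above 1 in 23 loci and wholly below 1 in 11. The median locus ratio was 1.02. Loci of a single core window had a median window ratio of 0.919, those of 2 or 3 windows 1.22 and those of 4 to 7 windows 1.45. Other measures showed no steady rise with size, with summed ratios of 1.20, 1.20 and 1.46 in that order. The loci above WT were 15 of 37, 15 of 25 and 8 of 14. Of the summed gain in hrde-1, 1829 RPKM over the rising loci while the others changed by -641 RPKM, one locus gave 28.9% and the 5 largest gave 56.2%. Without that locus the core median was 1.15, the summed ratio 1.18 [1.13 to 1.24] and the count called higher 28.

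**Figure D2:**
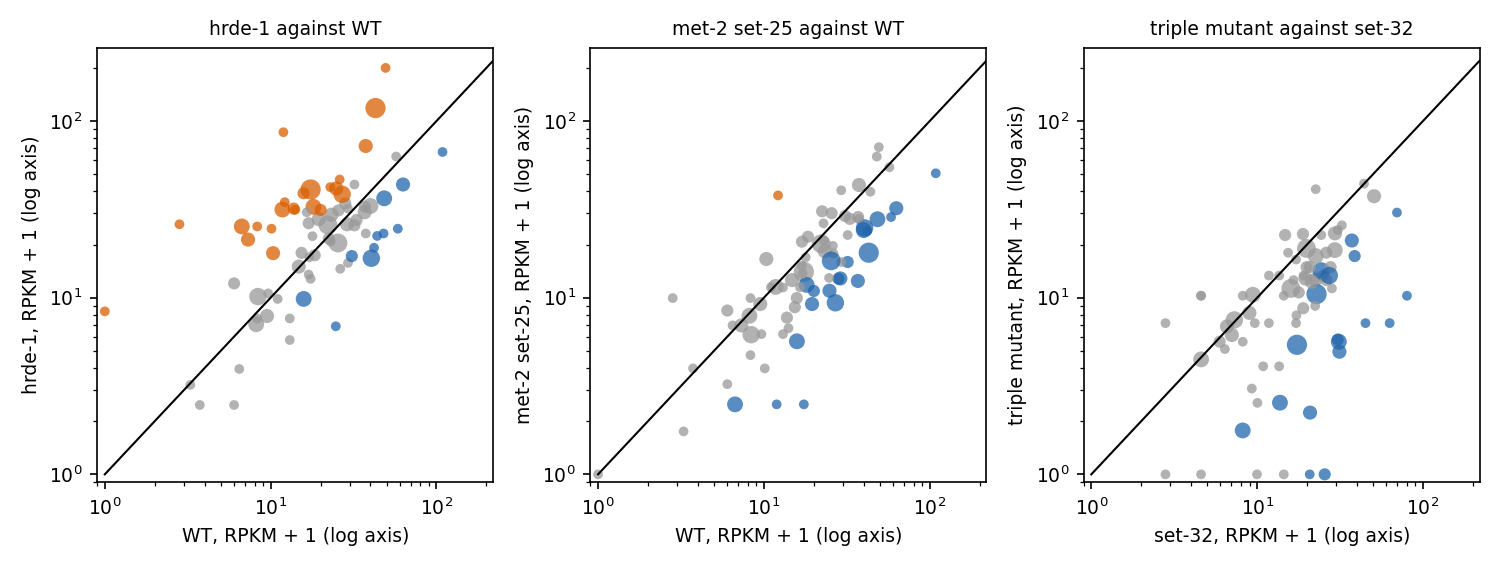
Mean nascent RNA of each of the 76 loci, in RPKM + 1 on log axes, for the 3 comparisons made within a library set; point size grows with the number of core windows, and the line marks equal levels. Orange and blue loci have counting intervals wholly above and below 1 (23 and 11 for hrde-1, 1 and 22 for met-2 set-25, 0 and 18 for the triple mutant against set-32).

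The locus with the largest gain was a run of 7 core windows on chromosome V, 5472001 to 5479000 (ce6 coordinates, as are all positions given here). Its mean level was 41.9 RPKM in WT, 117 in hrde-1, 17.0 in met-2 set-25, 16.4 in set-32 and 4.41 in the triple mutant. The order of the libraries was thus hrde-1, WT, then the methyltransferase mutants, with the triple mutant at the bottom. The ratio of hrde-1 to WT was 2.80 [2.44 to 3.22], and the triple mutant was at 0.269 [0.123 to 0.527] of set-32. All 7 windows were higher in hrde-1 than in WT. Its window at 5477001 gave 48.8 RPKM in WT, 166 in hrde-1, 23.9 in met-2 set-25, 27.0 in set-32 and 0 in the triple mutant.

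A second run of 7 core windows, on chromosome II from 11171001 to 11178000, was also high in hrde-1. Its mean was 16.4 RPKM in WT, 40.0 in hrde-1, 13.0 in met-2 set-25, 21.8 in set-32 and 9.48 in the triple mutant, a ratio to WT of 2.44 for hrde-1. The single-window locus on chromosome V at 10048001 held the highest core value of the data set, with 48.3 RPKM in WT, 199 in hrde-1, 70.2 in met-2 set-25, 21.6 in set-32 and 40.2 in the triple mutant, a ratio of 4.12 for hrde-1. In contrast, the 5 core windows on chromosome I from 5978001 to 5983000 were lower in hrde-1. They averaged 39.5 RPKM in WT, 15.7 in hrde-1, 23.8 in met-2 set-25, 23.4 in set-32 and 13.2 in the triple mutant, and the ratio of hrde-1 to WT was 0.398 [0.288 to 0.538]. WT was the highest of the 5 libraries at this locus.

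**Figure D3:**
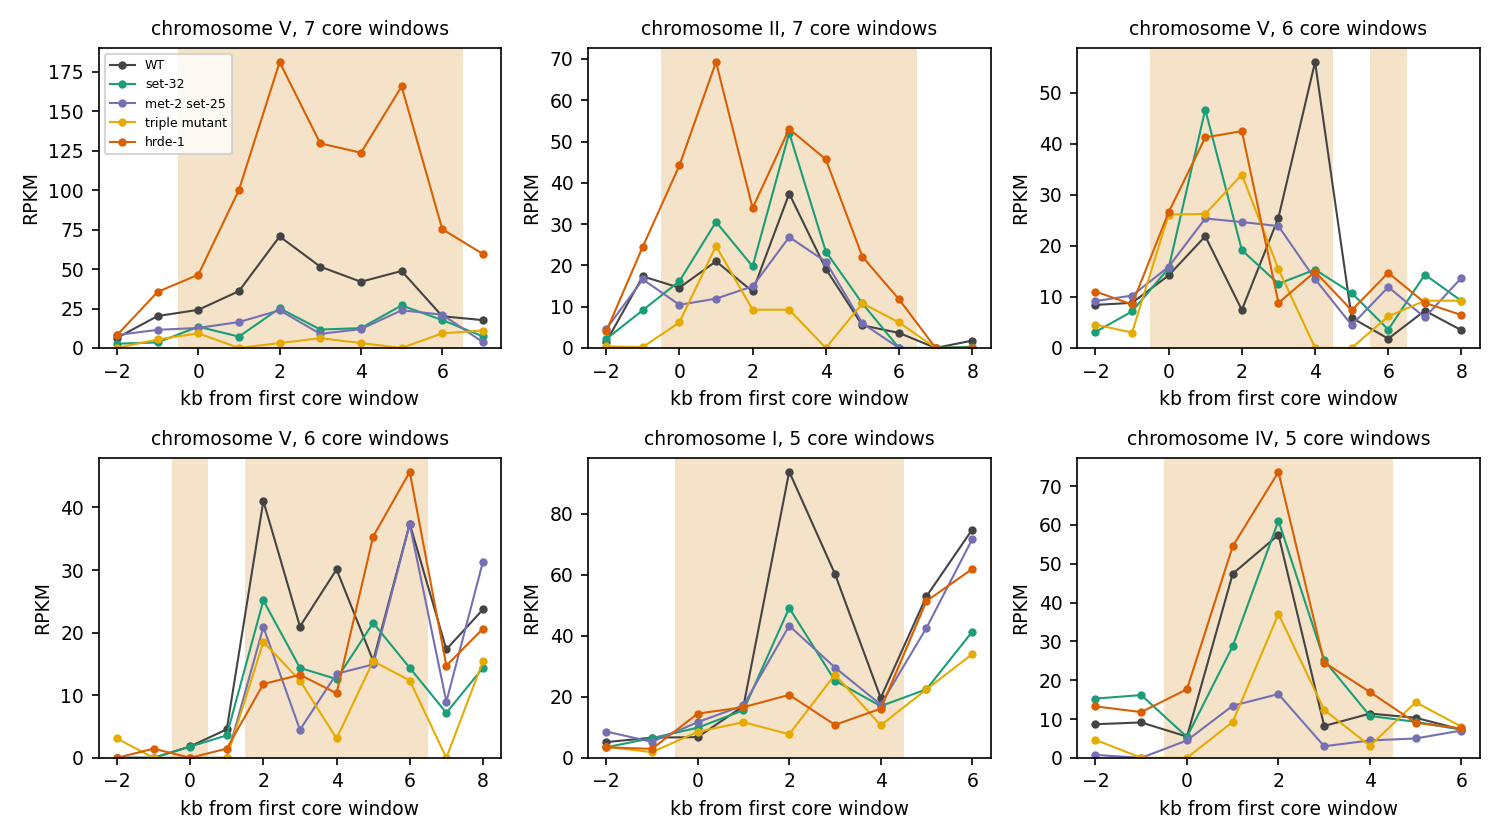
Nascent RNA in RPKM along the 6 loci with the most core windows (ties by the higher mean), by distance in kb from the first core window, with core windows shaded, flanks unshaded and 1 line per library. The hrde-1 line is the highest across the chromosome V locus of 7 core windows and the lowest or near it in the middle of the chromosome I locus.

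Other long loci did not share one pattern. On chromosome IV, 8395001 to 8400000, 5 core windows averaged 26.0 RPKM in WT, 37.5 in hrde-1, 8.36 in met-2 set-25, 26.2 in set-32 and 12.4 in the triple mutant. Here met-2 set-25 was at 0.322 [0.206 to 0.483] of WT. A locus of 6 core windows on chromosome V, 15588001 to 15595000, held means of 21.2, 24.8, 19.2, 18.8 and 18.0 RPKM, in the order of libraries used above. After rescaling its ratios to WT were 1.28 in hrde-1, 0.918 in the double mutant, 1.29 in set-32 and 1.54 in the triple mutant. Within it, neighbouring windows differed in opposite directions. The window at 15590001 held 7.45 RPKM in WT, 42.5 in hrde-1, 24.7 in met-2 set-25, 19.2 in set-32 and 34.0 in the triple mutant. The window at 15592001, 2 kb away, was the highest in WT at 56.0 RPKM, with 14.9 in hrde-1, 13.5 in met-2 set-25, 15.4 in set-32 and 0.04 in the triple mutant. Another locus of 5 core windows, on chromosome IV from 15511001 to 15516000, was low throughout, at 7.38 RPKM in WT, 9.15 in hrde-1, 5.17 in met-2 set-25, 6.29 in set-32 and 6.49 in the triple mutant. The remaining locus of 6 core windows, on chromosome V from 12690001 to 12697000, averaged 24.5, 19.4, 15.2, 15.0 and 10.3 RPKM in the same order.

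The highest means over the 5 libraries were those of the chromosome V run and of 5 short loci, one of them V 10048001 above. II 7040001, a single window, was the highest core window in WT, with 108 RPKM against 65.8 in hrde-1, 49.6 in met-2 set-25, 68.7 in set-32 and 29.3 in the triple mutant. I 1838001 held 56.2, 62.0, 53.7, 43.1 and 43.2 RPKM in that order. The 3 windows of I 13960001 to 13963000 averaged 36.4 RPKM in WT, 71.2 in hrde-1, 42.5 in met-2 set-25, 49.7 in set-32 and 36.5 in the triple mutant, with hrde-1 at 1.95 times WT. III 2605001 was highest in set-32, at 79.1 RPKM, with 47.0 in WT, 61.9 in met-2 set-25, 22.1 in hrde-1 and 9.26 in the triple mutant. These orders are of deposited values, and set against WT the levels of set-32 and the triple mutant move up with rescaling.

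The core windows with the largest ratios of hrde-1 to WT among those called higher lay below the WT core median. The window at chromosome III 12973001 gave 1.82 RPKM in WT, 25.1 in hrde-1, 8.95 in met-2 set-25, 5.39 in set-32 and 4.12 in the triple mutant. At chromosome II 2034001 the values were 10.9, 85.5, 1.49, 12.6 and 3.09 RPKM in that order, and at chromosome I 5465001 they were 10.0, 64.8, 2.98, 19.8 and 0. All of these had hrde-1 as their highest library, while the WT value of the first was 2 reads deep. The smallest ratios among those called lower lay at chromosome I 5981001, with 60.3 RPKM in WT and 10.8 in hrde-1, at its neighbour 5980001, with 93.8 and 20.6, and at chromosome III 3858001, with 23.7 and 5.89.

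The comparison of met-2 set-25 with WT asks whether the main H3K9 methyltransferases are needed to keep these loci quiet. The core windows were lower, not higher, in the double mutant. The median ratio was 0.707, with 45 core windows above WT and 120 below, and the summed level was 0.687 [0.650 to 0.727] of WT. The kept windows had a median ratio of 1.00 and the windows on neither list whose mean reached 5 RPKM one of 0.989, with 50.7% below WT. Rescaling left the core median at 0.715. Called windows followed the same direction, with 2 core windows higher and 26 lower of 79 that could be called, against a background of 1.19% higher and 1.26% lower over all kept windows and of 7.29% and 7.70% where the larger value reached 20 RPKM. Of the 76 loci, 58 were below WT and 17 above, and all 14 loci of 4 to 7 windows were below. GRTS windows had a median ratio of 0.710 in this mutant, but at lower levels. Their medians were 5.75 RPKM in WT and 3.73 in met-2 set-25, where 96 of the 191 held fewer than 3 reads.

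Among the core windows called lower in met-2 set-25, V 5475001 in the chromosome V run had the smallest ratio to WT. It held 51.5 RPKM in WT, 130 in hrde-1, 8.95 in met-2 set-25, 11.7 in set-32 and 6.18 in the triple mutant. Of the called windows, chromosome I 2630001 followed, with 24.2, 28.0, 5.22, 17.1 and 0 RPKM. In both, hrde-1 was the highest library and each methyltransferase mutant was below WT. The third was V 12693001, with 21.0, 13.3, 4.48, 14.4 and 12.4 RPKM, where WT was the highest. Only V 15590001, given above, and IV 2778001 were called higher in this mutant, the latter with 11.2 RPKM in WT, 33.7 in hrde-1, 36.9 in met-2 set-25, 3.59 in set-32 and 9.26 in the triple mutant.

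The triple mutant against set-32 sets the met-2 and set-25 mutations beside their absence within the other library set. The core windows were again lower. The median ratio was 0.640, with 40 core windows above set-32 and 123 below, and the summed level was 0.547 [0.497 to 0.601] of set-32. The windows on neither list whose mean reached 5 RPKM had a median of 0.815, and after rescaling to them the core median was 0.771 and the summed ratio 0.679. No core window was called higher and 32 were called lower of 68 that could be, against a background of 0.745% higher and 2.51% lower over all kept windows and of 8.04% and 27.1% where the larger value reached 20 RPKM. With a ratio of at least 1.5 in place of 2, 3 core windows were higher. After rescaling 6 core windows were called higher and 36 lower of 103 that could be (5.83% and 35.0%). The background was 20.2% and 17.4% of the kept windows that reached 20 RPKM. Of the loci, 63 were below set-32 and 13 above, and 18 had intervals wholly below 1, with 14 such loci after rescaling.

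**Figure D4:**
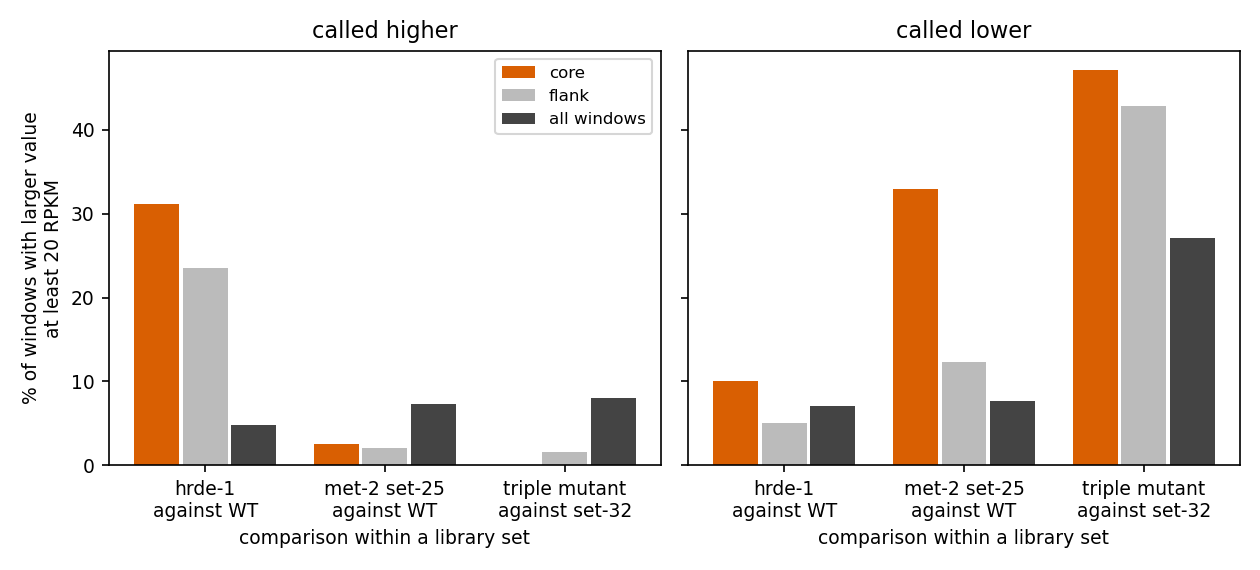
Share of windows called higher (left) and lower (right) in the 3 comparisons within a library set, as a percentage of windows whose larger value was at least 20 RPKM; bars show core windows, flank windows and all kept windows. Core windows exceed all windows in calls higher for hrde-1 (31.2% against 4.80%) and in calls lower for met-2 set-25 (32.9% against 7.70%) and for the triple mutant against set-32 (47.1% against 27.1%).

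Of the core windows called lower, the one with the smallest ratio of the triple mutant to set-32 was IV 11823001, with 16.4 RPKM in WT, 42.7 in hrde-1, 5.97 in met-2 set-25, 37.7 in set-32 and 0 in the triple mutant. III 10056001 followed with 10.0, 41.3, 5.97, 30.5 and 0 RPKM in the same order. In both, set-32 and hrde-1 were the high libraries, and the triple mutant had no read in a library where 1 read is 3.09 RPKM. The comparison of met-2 set-25 with WT and that of the triple mutant with set-32 share no library and both add the same pair of mutations. Both ratios were below 1 in 94 core windows (56.3%), against 35.2% of windows on neither list whose mean reached 5 RPKM. Taken singly, the first ratio was below 1 in 71.9% of core windows and the second in 73.7%, against 50.7% and 62.0% of those windows. The higher joint share thus goes with higher single shares and does not by itself show a link between the comparisons. Of the 26 core windows called lower in the first and the 32 in the second, 10 were shared, 38.5% of one list and 31.3% of the other, where the windows on neither list shared 19.8% and 9.82%. The base rates differed, since 32 of the 167 core windows (19.2%) but 2443 of the 34102 windows on neither list were called lower in the second. The larger overlap in core windows was not separated from their larger base rate. Across the 167 core windows the log2 ratios had a Pearson r of 0.25 and a Spearman rho of 0.31, given as a description because windows of one locus are not independent.

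The single mutant set-32 stood between these groups, and its direction rested on the scale. As deposited, the median ratio of set-32 to WT was 0.850, with 63 core windows above WT and 103 below. Against the 0.688 of windows on neither list whose mean reached 5 RPKM this was high, and after rescaling the core median was 1.21 and the summed ratio 1.23. As deposited 7 core windows were called higher and 18 lower of 89 that could be, with backgrounds of 0.402% and 4.27% over all kept windows and of 2.83% and 30.0% where the larger value reached 20 RPKM. After rescaling 25 were called higher and 5 lower of 104 that could be (24.0% and 4.81%). The background was 10.3% and 9.53% of the kept windows that reached 20 RPKM. By loci, 27 were above WT as deposited and 51 after rescaling. Since WT and set-32 lie in different library sets, neither scale settles the direction.

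The called windows with the largest ratios of set-32 to WT were III 10056001, given above, IV 8398001 and II 13124001. IV 8398001 held 8.21 RPKM in WT, 24.6 in hrde-1, 2.98 in met-2 set-25, 25.2 in set-32 and 12.4 in the triple mutant, and II 13124001 held 7.69, 23.0, 8.95, 23.4 and 6.50. The set-32 mutant and hrde-1 were close to each other and above WT in both. The smallest called ratio was at V 5473001 in the chromosome V run, with 36.0 RPKM in WT, 100.2 in hrde-1, 16.4 in met-2 set-25, 7.19 in set-32 and 0 in the triple mutant. The whole run averaged 16.4 RPKM in set-32 against 41.9 in WT. III 8796001 was low in set-32 alone, with 21.9 RPKM in WT, 20.6 in hrde-1, 22.4 in met-2 set-25, 5.39 in set-32 and 18.5 in the triple mutant.

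The triple mutant against WT had the lowest ratios and crosses the library sets. The core median was 0.524, with 136 core windows below WT and 29 above, next to 0.554 for windows on neither list whose mean reached 5 RPKM. Called counts were 1 higher and 45 lower of 78, or 57.7% lower against a background of 56.0% among windows that reached 20 RPKM (4.73% higher among those, and 8.06% lower and 0.681% higher over all kept windows). As deposited, the lower count was thus near the background. The smallest called ratios were those of V 15592001, V 5477001 and V 5473001, whose values are given with their loci, and V 15590001 was the window called higher. After rescaling the median was 0.889.

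At the median, transcription was lower on both sides of the core windows. At 1 kb upstream by coordinate the WT median was 8.75 RPKM and at 1 kb downstream 9.22, against 17.3 in the core, and in hrde-1 the values were 12.5, 15.2 and 22.1. The mean core level was 1.31 [1.26 to 1.37] times the mean flank level in WT, 1.51 [1.44 to 1.58] in hrde-1, 1.06 [0.998 to 1.12] in met-2 set-25, 1.32 [1.24 to 1.40] in set-32 and 1.03 [0.927 to 1.14] in the triple mutant. By means the excess of core over flank was largest in hrde-1, and in the genotypes that lack met-2 and set-25 the mean intervals reached 1. By medians the ratios of core to flank were 1.73, 1.67, 1.50, 2.25 and 1.45 in the same order, so set-32 and WT stood above hrde-1. Without the flank window of the highest mean, V 14277001, the ratio of means was 1.09 in the double mutant and 1.18 in the triple mutant.

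**Figure D5:**
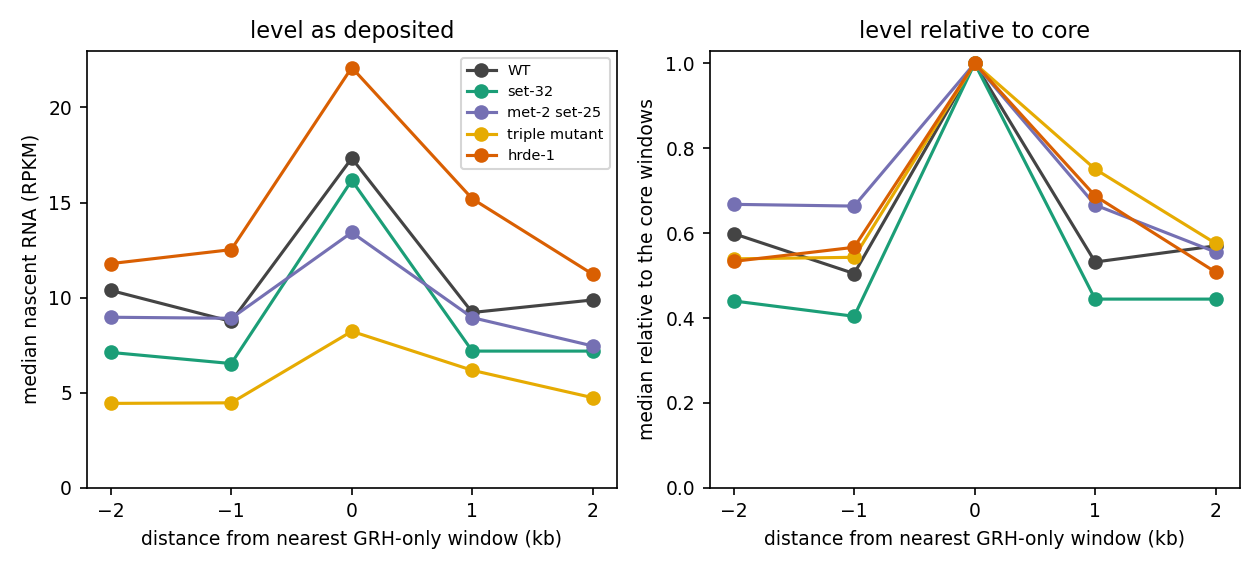
Median nascent RNA by distance in kb from the nearest GRH-only core window (negative is towards the chromosome's start), in RPKM as deposited (left) and relative to the core median of the same library (right), for the 5 libraries. Levels peak at the core in every library, from 17.3 RPKM in WT against 8.75 and 9.22 at 1 kb either side.

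The flank windows had medians closer to 1 than the core in each comparison within a library set. In hrde-1 against WT their median ratio was 1.08, and 28 of 307 were called higher (9.12%, or 23.5% of those that could be called) and 6 lower (1.95%, or 5.04%), where the background was 0.749% higher (4.80%) and 1.10% lower (7.08%). The calls higher were thus above the background in the flanks too. The summed ratio was 1.29 over the windows 1 kb away and 1.00 over those 2 kb away. For met-2 set-25 the flank median was 0.874 and for the triple mutant against set-32 it was 0.778. Across the library sets, which of flank and core lay further from 1 changed with the scale. For set-32 against WT the flank median was 0.765 as deposited and 1.00 after rescaling, against 0.850 and 1.21 in the core. For the triple mutant against WT it was 0.545 and 0.877, against 0.524 and 0.889 in the core. Flanks near a called core window differed in the same direction. The 60 flanks within 2 windows of the 34 core windows called higher in hrde-1 had a median ratio of 1.54, and the 233 near other core windows only had 0.99. For met-2 set-25, the 35 flanks of core windows called lower had 0.61 and the 258 near other core windows only had 0.92. The 14 flanks with no core window within 2 windows are in none of these groups.

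The highest flank levels had other patterns. The window at V 14277001 held 117 RPKM in WT, 181 in hrde-1, 132 in met-2 set-25, 422 in set-32 and 423 in the triple mutant, from reads shared between repeated positions, and V 11488001 held 61.8, 83.0, 76.6, 164 and 210. Both were high in the second library set. IV 11821001 held 188 RPKM in WT, 141 in hrde-1, 161 in met-2 set-25, 119 in set-32 and 111 in the triple mutant, with WT highest. The flank with the largest ratio of hrde-1 to WT was II 14982001, at 0.91 RPKM (1 read) in WT, 61.9 in hrde-1, 1.49 in met-2 set-25, 12.6 in set-32 and 6.18 in the triple mutant. Neither II 14982001 nor V 11488001 has a core window within 2 windows, since the GRH-only windows near them were left out for lying beside a GRTS window. The next were III 7673001, where WT held 6.27 RPKM and hrde-1 58.8, and III 13164001, with 8.21 and 66.3. The smallest called ratios were at III 13292001, with 67.5 RPKM in WT and 23.6 in hrde-1, IV 12141001, with 22.8 and 8.84, and III 9241001, with 21.0 and 8.84.

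The table also marks windows that lost H3K9me3 in both replicates of each methyltransferase mutant. Its columns name the double and triple mutants by strain codes, which were assigned here by matching the number of marked windows to the study's counts. The core windows carried these marks far more often than the genome, and since the GRH list was itself drawn up from H3K9me3, that excess is a description of how they were chosen. A loss in set-32 was marked in 81 core windows (48.5%, against 0.784% of kept windows), in met-2 set-25 in 63 (37.7% against 2.64%) and in the triple mutant in 85 (50.9% against 3.24%), and 49 core windows had all 3 marks. A loss in set-32 with none in met-2 set-25 was rare in the genome, and 30 of the 76 kept windows of this kind were core windows, while 12 of the 1926 with the reverse were. The flank windows had 60, 73 and 91 marks in the single, double and triple methyltransferase mutants (19.5%, 23.8% and 29.6%). They too carried the marks far more often than the kept windows, so they are not unmarked surroundings. The H3K9me3 tier given for each window, whose scale is not defined in the sources used here but whose low numbers hold most loss marks, was 1 to 3 for 89 core windows (53.3% against 5.04% of kept windows) and 4 for 67.

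Core windows marked as having lost H3K9me3 in a mutant were not higher in nascent RNA at the median within a library set. Unmarked windows had not necessarily kept H3K9me3, since a mark needed a loss in both replicates. For the triple mutant, 98.2% of kept tier 2 windows, 50.9% of tier 3 and 0.928% of tier 4 were marked. The study reports H3K9me3 at background in that mutant at GRH targets, so unmarked windows are no control with H3K9me3 intact. The 63 core windows marked as lost in met-2 set-25 had a median ratio to WT of 0.769 in that mutant, above the 0.691 of the 104 unmarked ones, and the 81 marked as lost in set-32 had one of 0.792 for set-32 to WT as deposited and of 1.14 after rescaling, against 0.902 and 1.25 for the unmarked ones. The 85 marked as lost in the triple mutant had a median ratio to set-32 of 0.550, against 0.713 for the 82 unmarked ones. Their median ratio of hrde-1 to WT was 1.33, against 1.09. In the triple mutant 41 of the 85 and 40 of the 82 held fewer than 3 reads. By mean levels the contrasts within a library set were smaller. Triple mutant and set-32 means were 11.3 and 21.3 RPKM in marked windows and 10.0 and 17.7 in unmarked ones. For met-2 set-25 and WT they were 18.3 and 26.5 in windows marked for the double mutant, and 14.4 and 21.0 in unmarked ones. In met-2 set-25 the windows marked as lost in set-32 were lower (0.603) than those not so marked (0.806). Windows on neither list that lost the mark in the triple mutant (2893) had a median ratio to set-32 of 1.00 and a summed ratio of 0.756 [0.734 to 0.779], against 0.530 [0.466 to 0.603] for the core windows with that mark. Many of the 2893 were near empty, with medians of 0.93 RPKM in the triple mutant and 1.80 in set-32. Of them, 1356 were at 0 in the triple mutant and 1071 in set-32, so their median ratio says little beside that of the core windows. The 11 core windows of tiers 5 to 7 differed from the rest in direction, with medians of 0.932 for hrde-1 and 1.08 for met-2 set-25 against WT.

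The core windows were unevenly spread over chromosomes. There were 42 on chromosome I, 24 on II, 29 on III, 41 on IV, 28 on V and 3 on X, and the X chromosome held 17.7% of kept windows. The outer parts of the chromosomes, 30% at each end, held 67.7% of core windows and 60.0% of kept windows. In hrde-1 against WT the core median was 2.18 on chromosome V, 1.46 on II, 1.31 on I, 1.07 on IV and 0.901 on III. The 3 core windows of chromosome X were all below WT, with a median of 0.585 at low levels. Chromosome V remained at 1.85 over 21 windows without its run of 7, with a summed ratio of 1.56 [1.37 to 1.78]. For met-2 set-25 against WT, chromosomes I to V were all below 1, from 0.566 on I to 0.800 on III. The 66 core windows whose values were whole reads in every library, and so held few reads shared with other positions, had median ratios of 1.24 in hrde-1 and 0.662 in met-2 set-25, against 1.16 and 0.754 in the 101 others.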

How the data were processed

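Pre-mRNA-seq libraries of 5 genotypes, 1 each, were analysed. The authors aligned reads with Bowtie 0.12.7 to ce6, kept perfect alignments, split reads with several positions evenly among them and deposited RPKM values per 1 kb window. Even splitting spreads signal over repeat copies. The deposited tier of H3K9me3 was read as a score. From the RPKM values, reads were recovered by the size of 1 read per library (78.4% to 80.1% of values above 0 were whole within 0.02 read). Ratios used a pseudocount of 1 RPKM, and sums used none. Count models were not run, since no genotype had a replicate. Calls needed a ratio of at least 2 and a larger value of at least 20 RPKM, which is 21.9 reads in WT and 6.48 in the triple mutant. Rescaling set the median log2 ratio to WT to 0 over windows on neither list whose mean reached 5 RPKM.

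Named loci were the 6 with the most core windows (ties for the last place by the higher mean, the tied locus left out being given as well) and the 6 of the highest mean, and named windows were up to 3 with the largest and the smallest called ratios per comparison, with 3 flanks of the highest mean. Members and lists were chosen with earlier results of these data known. No gene name or sequence is given, since no annotation of ce6 was used here. Python 3.11.15, numpy 2.4.6, pandas 2.3.3 and scipy 1.17.1 were used, and the calls were tested on simulated data. Alternatives were pseudocounts of 0.1 and 5 RPKM, ratios of 1.5 and 4, larger values of 10 and 50 RPKM, other scalings and other window sets.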

Additional observations from a re-analysis of the deposited data

How the results depend on the processing

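The limits of these values are the single library per genotype, the shallow triple mutant library and the difference in scale between the library sets. Of 180 recomputed values, 93 moved by less than their counting error (or by under 1.5 times for counts) and 85 moved by more. The other 2, both median ratios, changed direction. Ratios of core to flank that crossed 1 were counted among the 93 and the 85. Causes were not tested beyond the settings' own construction. Counts called at other thresholds, ratios or window sets are given without the share over all kept windows at that setting. They show only how the calls moved, not an excess over the genome. No paired analysis was possible because each genotype had 1 library. Values below take the comparisons with WT in the order hrde-1, double, single and triple methyltransferase mutant, then the triple mutant against set-32, and leave out comparisons that did not move. Rescaling to windows on neither list gave core medians of 1.29 for hrde-1, 1.21 for set-32 (a change of direction), 0.889 and 0.771, and flank medians of 1.17 for hrde-1, 1.00 for set-32, 0.877 and 0.919. Scaling to the total without ribosomal RNA gene windows gave core medians of 1.24 for hrde-1, 1.11 for set-32 (a change of direction), 0.761 and 0.719. The counts called after rescaling were 25 higher and 5 lower for set-32, 10 and 26 for the triple mutant against WT, and 6 higher against set-32. The rescaled counts of highest values were 17 for WT, 54 for set-32, 4 for met-2 set-25 and 25 for the triple mutant, and those of lowest values were 22 for WT, 54 for met-2 set-25 and 50 for the triple mutant.

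A pseudocount of 5 RPKM gave core medians of 0.787 for met-2 set-25, 0.619 and 0.708 for the triple mutant, and flank medians of 0.846 for set-32, 0.670 and 0.849. Whole-read windows gave core medians of 1.24, 0.662, 0.463 and 0.549 (hrde-1, met-2 set-25 and both triple mutant comparisons), a flank median of 0.922 for met-2 set-25, counts of 15 higher and 3 lower, 0 and 9, 2 and 8, 0 and 15, and 15 lower in the 5 comparisons, and ratios of core to flank of 1.10 in WT and 0.879 in met-2 set-25. The triple mutant's ratio of core to flank, 0.980 there, also fell below 1, though by less than its counting error. For hrde-1 the median over loci was 1.02 and over all GRH-only windows 1.27. Flanks with a mean of at least 5 RPKM gave 0.501 and 0.677 for the triple mutant, which held the highest value in 1 core window of that kind.

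A larger value of at least 50 RPKM gave counts of 13 higher and 4 lower, 0 and 11, 1 and 8, 0 and 13, and 5 lower, and one of at least 10 RPKM gave 5 and 42 for met-2 set-25 and 1 and 53 for the triple mutant against set-32. A ratio of at least 4 gave 5 and 2, 0 and 3, 0 and 2, 19 lower and 17 lower, and one of at least 1.5 gave 22 lower for hrde-1, 42 lower for met-2 set-25, 17 and 32 for set-32, 4 higher for the triple mutant against WT and 3 higher against set-32. Ratios of core to flank by medians were 1.73 in WT, 1.67 in hrde-1, 1.50 in met-2 set-25, 2.25 in set-32 and 1.45 in the triple mutant, and with flanks of 1 window 1.44 in WT and 1.14 in met-2 set-25. Without the flank window of the highest mean, an alternative chosen after seeing the data as was that without the leading locus, they were 1.45 in set-32 and 1.18 in the triple mutant.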

Other observations

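The GRH-only windows left out for lying within 2 windows of a GRTS window (23) lay between both classes in hrde-1, with a summed ratio to WT of 2.21 [1.92 to 2.54] next to 1.31 in the core windows and 5.96 [5.68 to 6.26] in GRTS windows. The 25 windows on both lists had a summed ratio of 7.23 [6.47 to 8.13]. In met-2 set-25 against WT the same groups did not fall in that order, with summed ratios of 0.613 in the 23 windows, 0.687 in the core windows, 0.662 in GRTS windows and 0.504 in the windows on both lists, whose intervals overlap in part.

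The comparisons of hrde-1 with WT and of the triple mutant with set-32 share no library. In 70 core windows (41.9%) the first ratio was above 1 and the second below, against 24.8% of windows on neither list whose mean reached 5 RPKM. Taken singly, the first was above 1 in 59.3% of core windows and the second below in 73.7%, against 42.3% and 62.0% of those windows. The contrast of joint shares thus goes with that of the single shares and shows no joint pattern particular to core windows. Across core windows the log2 ratios had a Pearson r of -0.03, a description over 167 windows that share loci. Of the 34 core windows called higher in hrde-1, 8 (23.5%) were called lower in the triple mutant against set-32, near the 19.2% of all core windows called lower there, and above the 5.73% (33 of 576) for windows on neither list whose mean reached 5 RPKM.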
